A study of Homo sapiens with 9 samples.

Results

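The 43 genes described here drive DNA replication and cell division: cyclins, cyclin-dependent kinases and E2F factors of the G1/S switch, the factors that license and fire replication origins, enzymes of DNA and nucleotide synthesis, regulators of mitotic entry, and kinases and checkpoint proteins of mitosis. They were taken by name from a fixed list, and all 43 matched the 20033 protein-coding genes of the RefSeq table (GRCh38.p14) on chromosomes 1 to 22, X and Y. The study used RPMI-8402, a human T-cell acute lymphoblastic leukaemia line grown in RPMI-1640 medium with serum. ChIP-seq, which sequences DNA recovered with an antibody from crosslinked, sonicated chromatin, was run with an antibody against NKX2-1 (ab76013), a homeodomain transcription factor, on 4 clones labelled wild type (WT), called WT10, WT13, WT28 as well as WT30, and on 4 NKX2-1 knockout clones, called C12, C15, S04 as well as S36, with 1 library per clone. A ninth library was made with an antibody against H3K27ac, the acetylation of lysine 27 of histone H3 that marks active promoters and enhancers. Its genotype field carries the same entry (NKX2-1) as that of the knockout clones, but it names no clone, and it has no replicate. The data are lists of called peaks with no read counts, so the depth of every library is unknown, the loss of NKX2-1 in the knockout clones cannot be checked from them, and a gene without a peak is one where none was called.

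Progression through S phase and mitosis rests on waves of transcription. E2F factors, released from the retinoblastoma protein when cyclin-dependent kinases become active, turn on the genes of origin licensing and DNA synthesis. Genes of G2 and mitosis peak later, under MYBL2 and FOXM1 acting with the MuvB core, which contacts promoter elements called CHR (cell cycle genes homology region), often together with the factor NF-Y on CCAAT boxes. Leukaemia lines in culture divide continuously, so such genes are in regular use in them.

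The H3K27ac list held 9857 peaks on these chromosomes, with a median enrichment of 6.19-fold over the background of the peak caller and a highest value of 27.7. As a check of the line, the T-cell genes CD3D, CD3E and LCK, the T-cell leukaemia factors TAL1 and LMO1, and NKX2-1 itself each had an H3K27ac peak at a gene end, with the strongest peak per gene between 6.92 and 11.8-fold. The T-cell surface gene CD7 had 0 peaks. Of the genes of other lineages, the lung gene SFTPC had 0, while the B-cell gene CD79A and the myeloid gene MPO had 1 peak each, of 5.42 and 5.94-fold, away from their ends. Among the NKX2-1 libraries, 2 touched more genes than the others: S36 had a peak in or within 10 kb of 305 protein-coding genes and WT10 of 262, against 49 to 129 in the other 6.

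RefSeq promoter windows, which run from 250 bases before to 50 bases after a start, were matched for 35 of the 43 genes, with 51 windows in all because some genes have several starts. The missing ones were CCNE2, CDK2, MCM4, MCM5, WEE1, FOXM1, AURKA and TTK. Words for 5 kinds of site were searched on both strands. For E2F factors these were the word TTCCCGC, its variant form TTCGCGC and the further variant form TTGGCGC. For the CHR element they were TTTGAA, or with a different middle TTTAAA, and for NF-Y the word CCAAT alone. For RUNX factors they were TGTGGT, or with a different middle TGCGGT, and for the NKX2 family TCAAGTG, or with a different second letter TTAAGTG. E2F and CCAAT words can overlap, since TTGGCGC and the reverse complement of CCAAT share TTGG. A match is a run of letters and not a shown binding site. The windows printed below, 5′ to 3′ on the gene's own strand, each have an H3K27ac peak over them. They belong to the gene with the highest such peak in each of the 5 phase sets, with 1 window printed per gene. MCM7 has 3 windows, RRM2 2 and AURKB 2, and all of these overlap an H3K27ac peak. Capitals mark the words found. The windows are E2F3 (a G1/S factor, chr6:20403364-20403663, plus strand), MCM7 (a helicase subunit, chr7:100101348-100101647, minus strand), RRM2 (ribonucleotide reductase, chr2:10122318-10122617, plus strand), CCNB2 (cyclin B2, chr15:59104896-59105195, plus strand) and AURKB (a mitotic kinase, chr17:8210200-8210499, minus strand), all on GRCh38.p14.
E2F3: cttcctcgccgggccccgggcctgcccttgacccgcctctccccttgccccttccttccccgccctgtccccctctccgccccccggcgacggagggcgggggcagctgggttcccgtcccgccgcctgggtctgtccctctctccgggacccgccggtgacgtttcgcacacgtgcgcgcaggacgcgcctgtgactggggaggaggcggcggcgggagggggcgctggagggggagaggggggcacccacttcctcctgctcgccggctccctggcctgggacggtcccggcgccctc
MCM7: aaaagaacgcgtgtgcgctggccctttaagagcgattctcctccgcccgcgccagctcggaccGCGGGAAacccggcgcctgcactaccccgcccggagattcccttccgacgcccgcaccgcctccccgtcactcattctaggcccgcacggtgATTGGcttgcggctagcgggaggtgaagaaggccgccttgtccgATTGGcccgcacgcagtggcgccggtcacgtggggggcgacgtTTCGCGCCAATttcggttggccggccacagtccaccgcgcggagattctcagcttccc
RRM2: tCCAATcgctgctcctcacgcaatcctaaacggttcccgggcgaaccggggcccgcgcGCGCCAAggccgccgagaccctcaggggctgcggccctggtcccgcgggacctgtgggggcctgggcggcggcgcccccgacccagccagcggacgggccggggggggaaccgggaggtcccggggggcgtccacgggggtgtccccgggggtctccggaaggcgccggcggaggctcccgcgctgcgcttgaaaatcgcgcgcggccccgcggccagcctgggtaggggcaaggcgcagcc
CCNB2: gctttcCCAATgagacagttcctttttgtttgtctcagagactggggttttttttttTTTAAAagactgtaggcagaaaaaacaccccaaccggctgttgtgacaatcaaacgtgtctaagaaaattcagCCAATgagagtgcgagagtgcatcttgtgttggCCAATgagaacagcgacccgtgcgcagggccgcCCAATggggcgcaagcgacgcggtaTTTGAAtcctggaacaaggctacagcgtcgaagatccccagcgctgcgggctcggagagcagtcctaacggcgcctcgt
AURKB: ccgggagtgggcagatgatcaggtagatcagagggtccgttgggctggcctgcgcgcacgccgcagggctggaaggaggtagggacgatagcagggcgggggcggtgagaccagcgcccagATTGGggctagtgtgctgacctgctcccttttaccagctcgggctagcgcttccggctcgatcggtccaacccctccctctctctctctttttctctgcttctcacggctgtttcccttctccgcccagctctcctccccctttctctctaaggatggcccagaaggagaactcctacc

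The printed MCM7 window held 3 E2F words, of which 2 overlap each other and a CCAAT word in 1 run of capitals across the start. The printed RRM2 window held 1 E2F word and 1 CCAAT word. The other RRM2 window (chr2:10122489-10122788) held 1 CHR word, 3 CCAAT words and 0 E2F words. The CCNB2 window held 4 CCAAT words in 1 orientation and 2 CHR words, the second of them downstream of the last CCAAT, and 0 E2F words. The E2F3 window, at the gene's second listed start, held 0 words of any kind. The window of the first listed start (chr6:20401629-20401928), which no H3K27ac peak overlapped, held 2 E2F words, 1 CHR word and 4 CCAAT words. The summit of the E2F3 end peak lay nearest to that first start. This peak (chr6:20402067-20403382) reached only into the upstream edge of the printed window. A further 5 windows were chosen after their values were seen. They are CDT1, the one gene of the 43 with an NKX2-1 antibody peak near it (chr16:88803539-88803838, plus strand), MCM6 and TOP2A, which hold many words of the early and of the late kind (chr2:135876394-135876693 and chr17:40417847-40418146, both on the minus strand), and CCNE1 and RRM1, which had no H3K27ac peak (chr19:29811741-29812040 and chr11:4094435-4094734, both on the plus strand).
CDT1: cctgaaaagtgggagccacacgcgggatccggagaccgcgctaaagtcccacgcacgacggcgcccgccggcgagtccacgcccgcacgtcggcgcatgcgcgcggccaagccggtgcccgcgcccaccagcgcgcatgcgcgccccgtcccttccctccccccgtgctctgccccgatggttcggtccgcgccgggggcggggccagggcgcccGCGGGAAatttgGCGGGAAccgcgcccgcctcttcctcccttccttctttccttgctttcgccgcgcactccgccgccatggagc
MCM6: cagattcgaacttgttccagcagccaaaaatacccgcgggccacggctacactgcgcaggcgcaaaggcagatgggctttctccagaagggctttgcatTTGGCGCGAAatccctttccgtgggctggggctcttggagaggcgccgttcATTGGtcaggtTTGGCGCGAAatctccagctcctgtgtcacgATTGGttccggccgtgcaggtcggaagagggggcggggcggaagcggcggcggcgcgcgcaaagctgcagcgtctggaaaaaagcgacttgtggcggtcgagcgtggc
TOP2A: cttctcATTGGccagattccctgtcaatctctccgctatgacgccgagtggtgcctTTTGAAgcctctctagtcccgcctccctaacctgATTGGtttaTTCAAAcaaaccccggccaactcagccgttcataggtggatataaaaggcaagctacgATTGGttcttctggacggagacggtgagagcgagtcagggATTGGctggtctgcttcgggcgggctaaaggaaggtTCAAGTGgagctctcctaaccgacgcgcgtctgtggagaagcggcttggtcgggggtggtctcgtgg
CCNE1: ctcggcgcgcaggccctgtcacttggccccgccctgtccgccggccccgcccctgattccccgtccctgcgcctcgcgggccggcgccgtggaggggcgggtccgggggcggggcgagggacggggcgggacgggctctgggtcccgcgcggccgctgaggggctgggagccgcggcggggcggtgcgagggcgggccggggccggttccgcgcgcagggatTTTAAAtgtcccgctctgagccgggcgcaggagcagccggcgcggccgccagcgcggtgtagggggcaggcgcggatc
RRM1: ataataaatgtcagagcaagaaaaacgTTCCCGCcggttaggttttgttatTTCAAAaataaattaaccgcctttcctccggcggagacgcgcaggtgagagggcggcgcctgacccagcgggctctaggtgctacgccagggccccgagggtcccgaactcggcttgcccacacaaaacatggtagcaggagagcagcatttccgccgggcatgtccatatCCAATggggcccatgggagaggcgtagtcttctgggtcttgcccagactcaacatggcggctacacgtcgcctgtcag

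The MCM6 window held 4 E2F words in 2 overlapping pairs, each pair reading as 1 run of capitals, and 2 CCAAT words. The CDT1 window held 2 E2F words a few bases apart and 0 CCAAT words. The TOP2A window held 4 CCAAT words, 2 CHR words and the 1 NKX2-family word found in any window of these genes.

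Across the 35 genes, the early and the late sets differed in the words their windows held. An E2F word stood in a window of 22 of the 35 genes (62.9%), against 17.7% of all 15842 protein-coding genes with a window. By set these were 4 of 6 genes of the G1/S switch, 8 of 9 of origin licensing and firing, 5 of 5 of DNA synthesis, 4 of 8 of mitotic entry and 1 of 7 of mitosis, where MAD2L1, a spindle checkpoint protein, was the one. CHR words ran the other way, with 2 of 6 genes of the G1/S switch, 2 of 5 of DNA synthesis, 1 of 9 licensing genes (CDC45), 6 of 8 mitotic entry genes (CCNB1, CCNB2, CDK1, CDC25B, CDC25C and PLK1) and 5 of 7 mitosis genes (CDC20, MAD2L1, MKI67, BUB1B and TOP2A). In all, 16 genes (45.7%) held one, against 24.7% of all genes. A CCAAT word was found in 27 genes (77.1%) against 42.1%, and it was common in both early and late sets. Counted by window, 21 of the 51 (41.2%) had 2 or more CCAAT words against 11.4% of the 22198 windows of all protein-coding genes. Among the 23 of the 51 windows that overlap an H3K27ac peak, 47.8% had an E2F word, 21.7% a CHR word and 65.2% a CCAAT word, against 22.2%, 16.4% and 30.9% of the 2046 such windows of all protein-coding genes. As counts these were 11, 5 and 15 of the 23. Of the 28 windows without such a peak, 14 had an E2F word, 13 a CHR word and 21 a CCAAT word. Within these genes, E2F, CHR and CCAAT words were thus not more frequent in the windows that overlap a peak. A window without an overlap can still belong to a gene with an end peak just past it. The 11.3-fold end peak of MKI67 began 66 bases downstream of the start, and the 9.36-fold one of CCNA2 81 bases downstream. The split therefore does not separate acetylated from unacetylated promoters. RUNX words were found in 4 genes (11.4% against 23.6%) and NKX2-family words in 1 (2.86% against 5.47%). The windows had a median GC content of 64.3% against 62.3% for all windows. CHR words lay within 100 bases of the start in 20 of 28 cases (71.4%, against 38.8% in all windows), and E2F words in 26 of 43 (60.5% against 52.3%). Windows of 1 gene can overlap, so their words are not independent, and these shares are descriptions without a test.

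**Figure D1:**
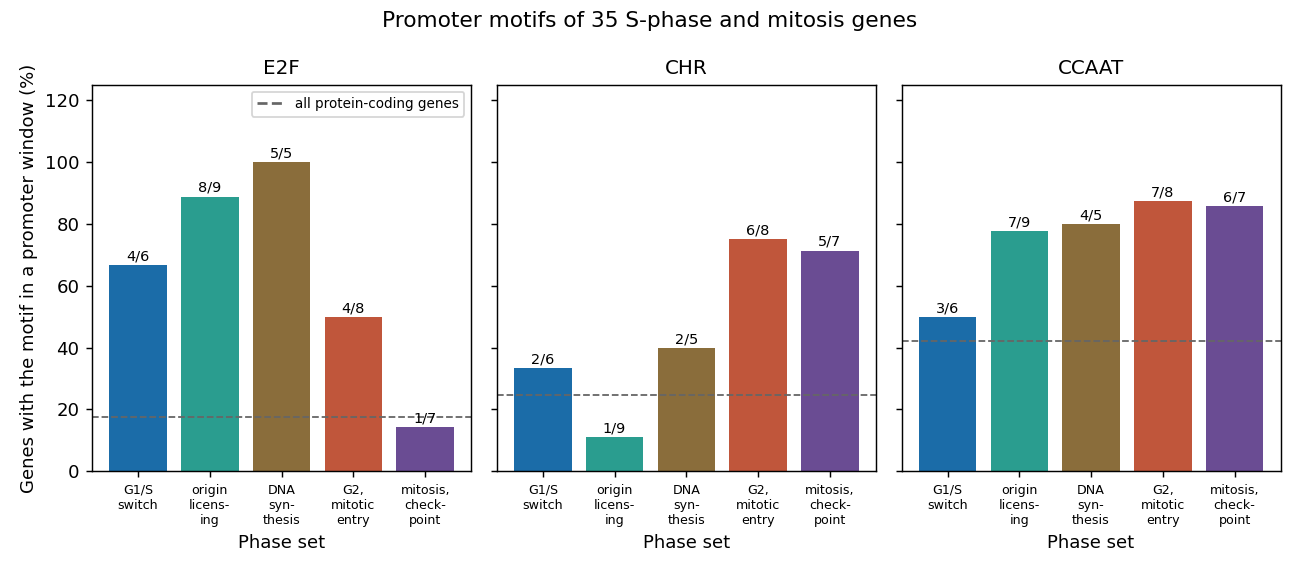
Share of genes (%) with an E2F, CHR or CCAAT word in any RefSeq promoter window, by phase set, for the 35 genes with a window. Numbers above the bars are genes with the word over genes with a window, and the dashed line is the share of all protein-coding genes (17.7%, 24.7% and 42.1%). E2F words were more frequent in the early sets (8 of 9 licensing genes) and CHR words in the late ones (5 of 7 mitosis genes). The split was not complete, with E2F words in 4 of 8 mitotic entry genes and CHR words in 2 of 5 DNA synthesis genes.

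An H3K27ac peak lay in the gene body or within 10 kb of it for 39 of the 43 genes (90.7%), against 29.0% of all protein-coding genes. The mark sat at gene ends: a summit lay within 1 kb of an end of the gene for 37 of the 43 (86.0%), against 18.2% of all genes. Peaks elsewhere in the window were found for 10 (23.3%) against 16.2%. The 43 genes had 70 peaks in their windows, 48 of them at ends and 22 elsewhere. CCNE1, POLA1, RRM1 and TTK had 0 peaks, and ORC1 and PCNA had peaks only elsewhere. One unreplicated library allows no test of these shares. At a −log10 q of 10 or more, 11 of the 43 kept a peak at an end, against 3.22% of all genes, and 2 had one elsewhere, against 3.48%.

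**Figure D2:**
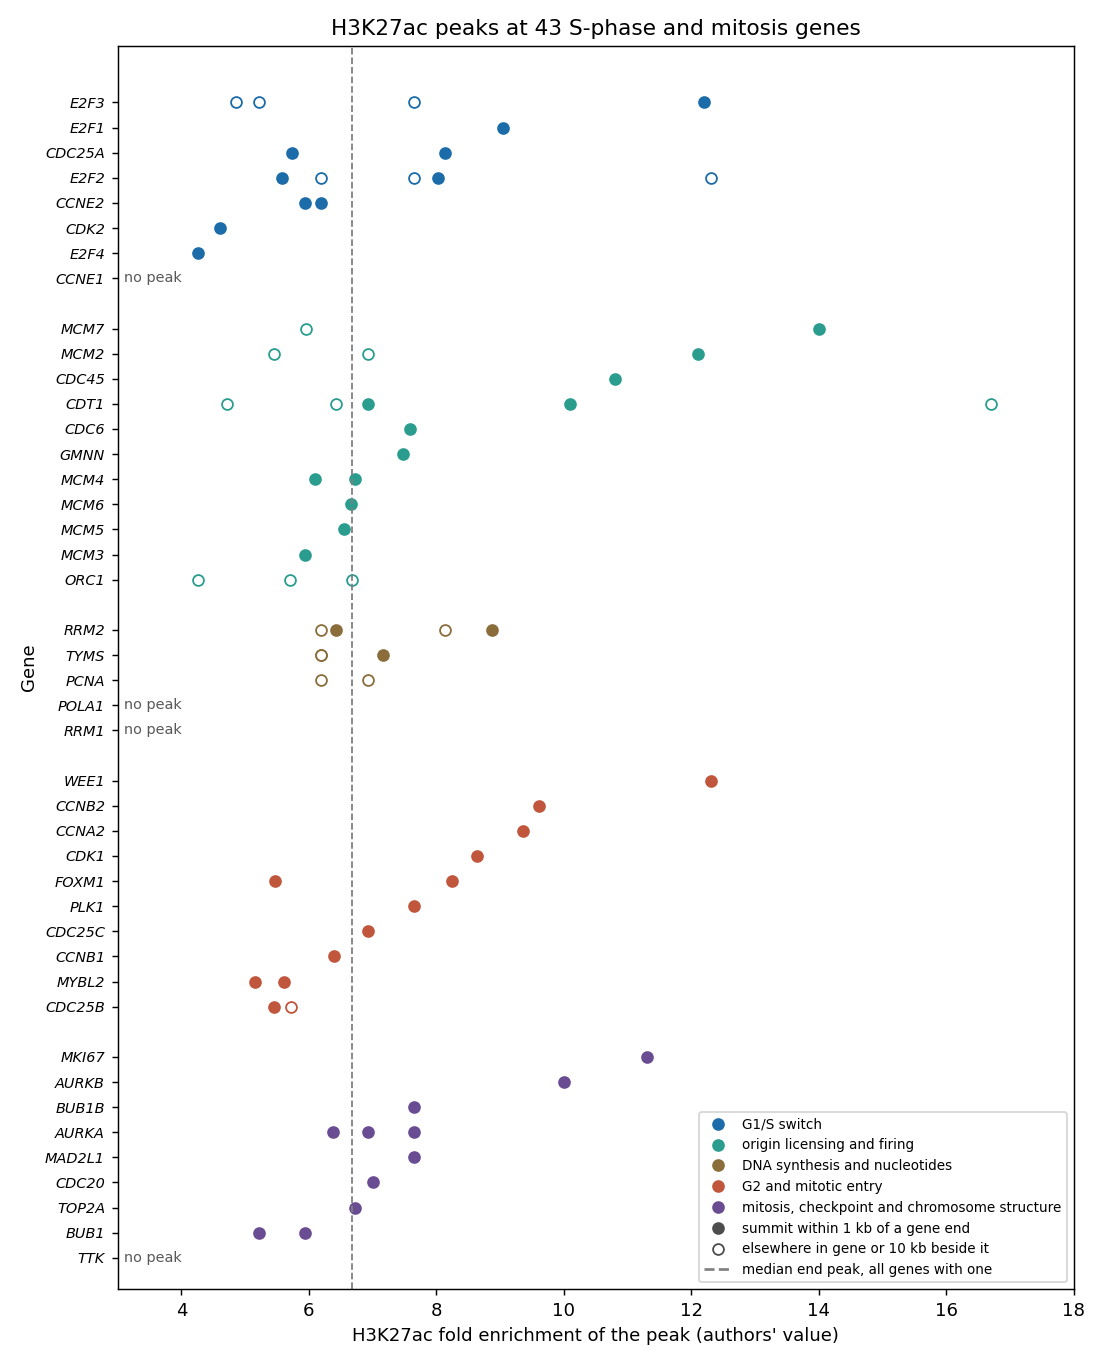
H3K27ac fold enrichment of every peak in or within 10 kb of the 43 genes, with 1 row per gene grouped by phase set. Filled points are peaks with a summit within 1 kb of a gene end, open points are peaks elsewhere, and the dashed line is the median of the strongest end peak over all genes with one (6.68). MCM7 has the strongest end peak (14.0), the strongest point of all is the open one at CDT1 (16.7), and CCNE1, POLA1, RRM1 and TTK have no peak.

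For the 37 genes with an end peak, the strongest such peak had a median enrichment of 7.65-fold and a range from 4.26 (E2F4) to 14.0 (MCM7). Over the 3656 protein-coding genes with an end peak the median was 6.68, with quartiles of 5.70 and 8.17. Of the 37, 27 lay above that median and 10 below it, and 14 lay above the upper quartile. The end peaks of 9 genes ranked in the top 10% of all H3K27ac peaks: E2F3, MCM2, MCM7, CDC45, CDT1, CCNB2, WEE1, AURKB and MKI67. That limit is taken over single peaks, at gene ends or not. The share of all genes with an end peak above it was not counted. All 5 phase sets but that of DNA synthesis contributed to these 9.

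Among the 8 genes of the G1/S switch, 7 had an end peak and the E2F genes spanned the whole range. E2F3, an activating E2F, had an end peak of 12.2-fold (chr6:20402067-20403382) with a summit 622 bases downstream of the nearest start. E2F1, the best known activator, had 1 peak of 9.05-fold. CDC25A, the phosphatase that removes inhibitory phosphate from CDK2, had a peak of 8.14-fold inside the gene and a weaker one of 5.74-fold upstream. E2F2 differed in that its strongest peak lay inside the gene, 5581 bases from the start (chr1:23525262-23526107, 12.3-fold), beside 2 further internal peaks of 7.65 and 6.19-fold and end peaks of 8.02 and 5.57-fold. E2F3 likewise had 3 peaks inside the gene away from its ends, of 7.65, 5.21 and 4.85-fold, and the first of them lay 744 bases from a second listed start. At the low end, E2F4, mostly a repressor E2F, had 4.26-fold and CDK2, the partner of cyclin E, had 4.61-fold, both among the weakest peaks of the library (ranks 9815 and 9698 of 9857). The cyclin E genes were unlike each other: CCNE2 had 2 end peaks of 5.94 and 6.19-fold, one of them within 1 kb of an end of NDUFAF6, and CCNE1 (chr19:29811991-29824312) had none in the gene or 10 kb to either side.

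Origin licensing and firing had H3K27ac at all 11 genes, with an end peak at 10. The helicase subunits MCM2 to MCM7, which load onto origins as a ring, ranged widely: 14.0-fold at MCM7 (chr7:100100759-100101526), 12.1 at MCM2 (chr3:127598353-127599176), 6.73 at MCM4, 6.66 at MCM6, 6.55 at MCM5 and 5.94 at MCM3. MCM7 and MCM2 thus stood apart from the other 4, which lay close together. MCM2 also had upstream peaks of 6.92 and 5.45-fold, 8724 and 7927 bases from its start. CDC45, which joins the MCM ring to make the active helicase, had 10.8-fold, CDT1, the loading factor that geminin holds in check, 10.1, CDC6, its partner in loading, 7.59, and GMNN, which encodes geminin, 7.48. The origin recognition gene ORC1 had no summit within 1 kb of the ends of its gene body. Its peaks of 6.68 and 4.26-fold lay 259 bases downstream and 418 bases upstream of a start that RefSeq lists inside that span, both within 1 kb of an end of PRPF38A, and the third, of 5.70-fold, lay near CC2D1B.

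**Figure D3:**
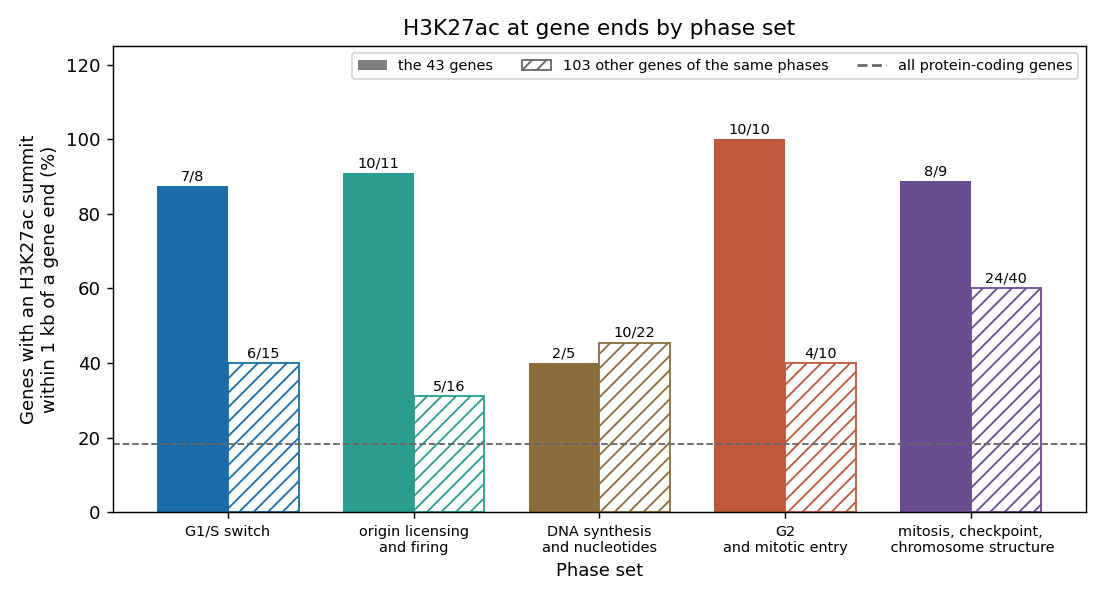
Share of genes (%) with an H3K27ac summit within 1 kb of a gene end, by phase set, for the 43 genes (solid) and for 103 other genes of the same phases (hatched), with the share of all protein-coding genes as a dashed line (18.2%). Counts stand above the bars. The solid bars lie between 87.5% and 100% except for DNA synthesis, where 2 of 5 genes had an end peak.

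DNA synthesis and nucleotide supply was the set with the fewest end peaks, 2 of 5. RRM2, the small subunit of ribonucleotide reductase, had end peaks of 8.87-fold (chr2:10121568-10122601) and 6.43-fold and 2 internal ones of 6.19 and 8.14-fold some 37 kb into its RefSeq span of 88.4 kb. TYMS, thymidylate synthase, had 7.16-fold 446 bases downstream of its start and 2 peaks of 6.19-fold beyond its far end. PCNA, the sliding clamp of the replication fork, had no peak at the ends of its gene body. Its peaks of 6.92 and 6.19-fold lay 240 and 904 bases downstream of a second start listed inside the gene, beside the antisense RNA gene PCNA-AS1. RRM1, the large subunit of ribonucleotide reductase, and POLA1, the catalytic subunit of DNA polymerase alpha, had 0 peaks although the windows of both held E2F words (1 and 3).

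All 10 genes of G2 and mitotic entry had an end peak, the 1 set in which none lacked it. WEE1, the kinase that holds CDK1 inactive, had the strongest (chr11:9573519-9575288, 12.3-fold, 1770 bases long). The mitotic cyclins followed in the order CCNB2 (9.61), CCNA2 (9.36) and CCNB1 (6.39), with CDK1, their kinase, at 8.63. FOXM1 and PLK1, a factor and a kinase that promote mitotic entry, had 8.25 and 7.65-fold, and CDC25C, which activates CDK1, 6.92. MYBL2, the partner of the MuvB core, had 2 peaks of 5.61 and 5.15-fold. CDC25B was the one gene of this set with a peak elsewhere. Its end peak (5.45-fold) lay 625 bases upstream of the start and within 1 kb of an end of CENPB, while the internal one (chr20:3796558-3797044, 5.72-fold) lay 388 bases downstream of another listed start.

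Of the 9 genes of mitosis, checkpoint and chromosome structure, 8 had an end peak and none had a peak elsewhere. MKI67, which encodes the proliferation antigen Ki-67 that coats mitotic chromosomes, had 11.3-fold (chr10:128125441-128126357), and AURKB, the kinase that corrects chromosome attachment, 10.0-fold (chr17:8209907-8210644). AURKA, the spindle pole kinase, BUB1B and MAD2L1, which delay anaphase until chromosomes are attached, shared a highest value of 7.65. CDC20, the activator of the anaphase-promoting complex, had 7.0, TOP2A, the topoisomerase that untangles sister chromatids, 6.73, and the checkpoint kinase BUB1 5.94-fold. TTK, the kinase that starts the checkpoint (chr6:80004649-80042527), had none.

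For most genes with a listed start, the strongest end peak had its summit just inside the gene. Taking the strongest end peak of each of the 30 genes with a listed start, the summit was downstream of the nearest start in 25 (83.3%) and upstream in 5, and the median offset over all 30 was 280 bases downstream. Over the 3062 protein-coding genes with both an end peak and a listed start the median was 250 bases and 69.6% were downstream. The upstream ones were CDT1, RRM2, CDC25B, AURKB and BUB1, with offsets of 474, 601, 625, 141 and 805 bases. Genes with an end peak but no listed start are not in these numbers. Among them, the strongest end summit lay outside the gene body at CCNE2, MCM4 and MCM5, and inside it at CDK2, WEE1, FOXM1 and AURKA. For 10 of the 37 genes there was more than 1 end peak, against 789 of the 3656 protein-coding genes with an end peak. In 9 of the 10 the summits lay both inside and outside the gene body, the exception being MYBL2. Such pairs were not counted over all genes. End peaks had a median length of 599 bases (range 200 to 1785) against 457 over all genes, and stronger peaks were longer (Spearman's rho = 0.717 across 37 genes). That value is a description across genes of 1 library, and the peak caller sets both measures. For gene length the same coefficient was −0.00368.

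**Figure D4:**
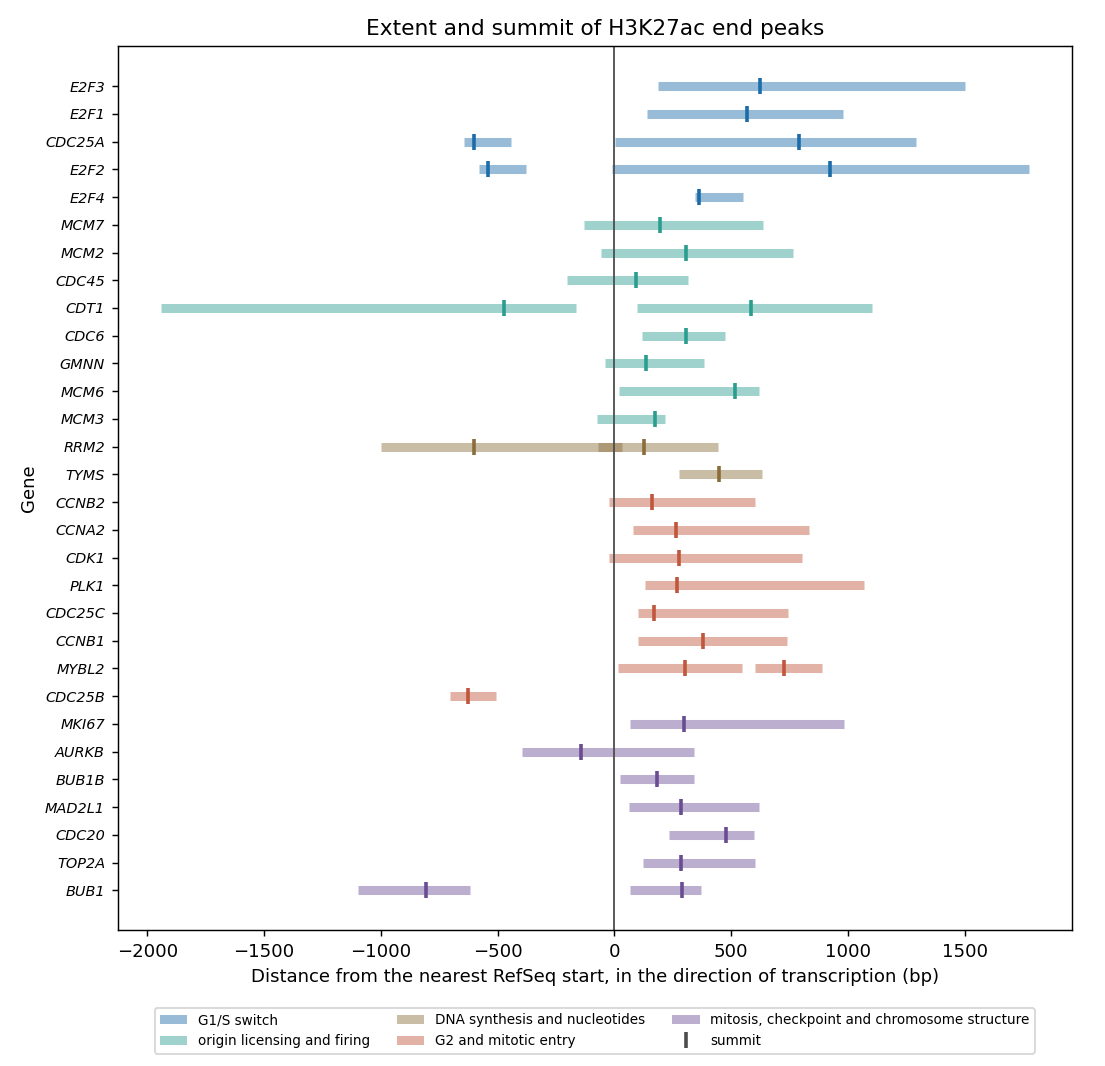
Extent (bars) and summit (ticks) of the H3K27ac end peaks of the 30 genes with a RefSeq start, in bases from the start nearest to each summit (peaks of 1 gene can refer to different starts, as the overlapping bars of RRM2 do). For 25 of the 30 genes the summit of the strongest peak lies to the right of the start, and the median offset over all 30 is 280 bases.

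Several of these ends are shared with another gene. For 12 of the 37 genes an end peak also lay within 1 kb of an end of a second protein-coding gene, among them AP4M1 beside MCM7, TPRA1 beside MCM2, UFD1 beside CDC45, PRKDC beside MCM4, BBS7 beside CCNA2, FAM53C beside CDC25C, RHNO1 beside FOXM1 and CSTF1 beside AURKA. At such ends the acetylation cannot be assigned to one of the pair. Of the 22 peaks elsewhere, 5 lay within 1 kb of an end of a second coding gene, such as those of MCM7 near COPS6 and of CDT1 near APRT, and 6 lay within 1 kb of a listed start of the gene itself. The same counts were not made over all protein-coding genes, so they are not read as particular to these genes.

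One of the 43 genes, CDT1, had an NKX2-1 antibody peak in the gene or within 10 kb of it. The share over all protein-coding genes was 2.59% for any of the 8 libraries, 1.48% for any WT library and 1.60% for any knockout library. The peak lay upstream of CDT1, between it and PIEZO1, and overlapped no annotated gene. It was called in WT10 (chr16:88799084-88799333, 7.38-fold, −log10 q 11.2) and in WT28 (chr16:88799055-88799319, 7.68-fold, −log10 q 11.2) and in none of WT13, WT30, C12, C15, S04 and S36. Both summits fell on the same base, 4607 bases upstream of the CDT1 start. WT libraries thus differed among themselves, and 2 of 4 were like the knockout libraries in having no call. In a two-sided Fisher's exact test of 2 of 4 against 0 of 4 libraries, p was 0.429, and 1.00 after Benjamini-Hochberg adjustment over the 518 genes with a call in any library. That design cannot go below 0.0286, none of the 518 genes (0%) passed the adjusted threshold of 0.05, and 7 had an unadjusted p under it. Passing after adjustment would need most of the 518 genes to reach 0.0286 together. The 0% thus follows from the design and says nothing about any 1 gene.

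The same site was in both of the authors' lists that join libraries, the combined list (chr16:88799048-88799309, 5.16-fold) and the WT-only list (chr16:88799055-88799333). Of the 43 genes CDT1 was the 1 near either list, against 0.744% and 1.03% of all genes. By enrichment the peak ranked 37 of the 209 peaks of the combined list, and 9 of the 32 that touched an H3K27ac peak. The WT-only list, by its name, holds regions of the WT clones alone, so it is no independent evidence on the contrast of the clones.

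The site lay at the edge of the strongest H3K27ac peak of any of the 43 genes (chr16:88799284-88800807, 16.7-fold), which ranked 72 of 9857. The overlap was 50 bases in WT10, 36 in WT28 and 26 in the combined list. The NKX2-1 summits of WT10 and WT28 fell 102 bases outside the acetylated stretch and 600 bases from its summit. The H3K27ac library names no clone and carries the genotype entry of the knockout clones. Binding and acetylation were thus not shown in the same cells. A second acetylated stretch of 10.1-fold reached into the CDT1 promoter window printed above, so upstream acetylation and promoter acetylation were separate calls, with a peak of 4.72-fold between them. CDT1, 4480 bases from the combined-list peak, was the nearest gene. APRT, a purine salvage enzyme, lay 10.0 kb away, the mechanosensitive channel gene PIEZO1 13.8 kb and the lysosomal enzyme gene GALNS 14.4 kb. No genome sequence was used, so the letters of the site itself are not shown.

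**Figure D5:**
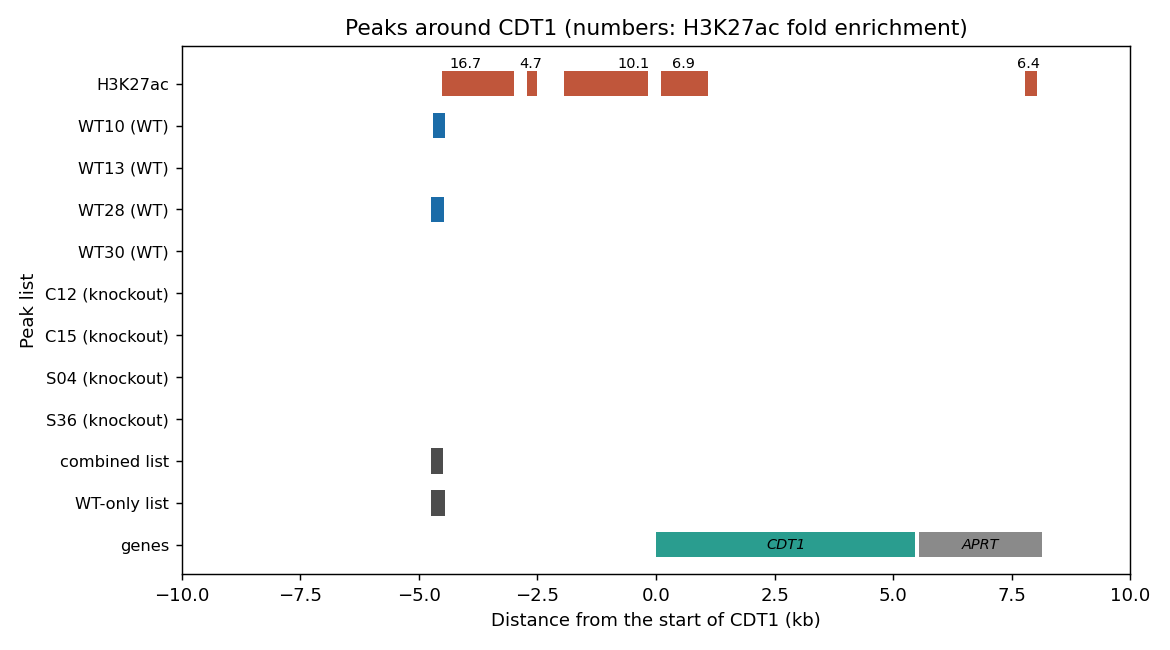
Called peaks within 10 kb of the CDT1 start, with 1 row per peak list and the x axis in kb from the start (transcription runs to the right). Numbers above the H3K27ac row are fold enrichments. NKX2-1 antibody peaks stand in the rows of WT10 and WT28, at the left edge of the 16.7-fold H3K27ac peak, and the rows of the other 6 libraries are empty. The H3K27ac library names no clone and carries the genotype entry of the knockout clones.

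Per library, 1, 0, 1 and 0 of the 43 genes had a peak in WT10, WT13, WT28 and WT30, a mean of 0.50 ± 0.58 (SD, n = 4), and 0 of the 43 in each knockout library (n = 4). Over all protein-coding genes the numbers were 130 ± 93.6 in WT and 139 ± 111 in knockout libraries (SD, n = 4 each). The libraries with the call at CDT1 were the pair with the most genes near a peak among the WT clones, WT10 with 262 and WT28 with 129, against 49 in WT13 and 82 in WT30. The knockout clone S36, with 305 genes, had no call there. Whether the number of calls per library bears on the difference was not tested. The median distance from gene body to the nearest combined-list peak was 3834 kb over the 42 genes with a list peak on their chromosome (CDT1 included, TYMS without a value), close to the 3515 kb over all genes. After CDT1, the nearest to such a peak were RRM1 (309 kb), RRM2 (327 kb) and E2F2 (365 kb).

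The 103 other genes of the same 5 phases, a list that does not include the 43, were read in the same way. A peak lay in the window of 54 (52.4%) and at a gene end of 49 (47.6%), with a median end enrichment of 6.43-fold. The shares with an end peak were 6 of 15 for the G1/S switch, 5 of 16 for origin licensing, 10 of 22 for DNA synthesis, 4 of 10 for mitotic entry and 24 of 40 for mitosis. The highest end peaks stood at CHAF1A, a chaperone subunit that deposits histones behind the fork (12.5-fold), TOPBP1, which helps to fire origins (12.5), and LIN9, a subunit of the MuvB core (10.7).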

How the data were processed

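The deposited files hold 1 peak list per library, a combined list for the NKX2-1 antibody and a WT-only region list. Per the submitters' processing notes, FastQC, Bowtie2, SAMtools, MACS2 and deepTools were used with the hg38 build. Versions, parameters and the control are not given in the sources used here, so how the cut-off and the depth of each library shaped its calls cannot be judged. For each peak the deposited lists give its summit, its fold enrichment (a ratio to the caller's background at that summit), its −log10 q and 2 columns left unused here, the −log10 p and a score equal to 10 times the −log10 q without its decimals. The authors' fold and −log10 q were compared inside 1 list at a time.

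Positions are 1-based, and contigs other than chromosomes 1 to 22, X and Y were left out. A peak was assigned to a gene when it overlapped the RefSeq gene body (GRCh38.p14) or 10 kb to either side by 1 bp, and called an end peak when its summit lay within 1 kb of either end of the body. The table has no exons, so exon, intron and UTR were not told apart, and strand came from the RefSeq promoter table. WT and knockout libraries were compared for each protein-coding gene with a call by Fisher's exact test, two-sided (scipy 1.17.1), with Benjamini-Hochberg adjustment. Gene assignment and test were checked on simulated peaks. Since 1 clone gave 1 library, p-values cannot separate clones from technical spread, and clones share no number that would pair them.

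The genes, phase sets, motif words and other lists were chosen with earlier results of these data known. Named with values were, per phase set, the 3 genes with the highest end peak and those without one, every gene whose peak elsewhere exceeded its end peak or that had 3 or more peaks elsewhere, and every gene near an NKX2-1 antibody peak; the remaining genes were named for completeness. Alternatives were windows of 0 and 25 kb, stricter −log10 q limits, other definitions of an end, and leaving out each library. Some results on genes outside the 43 are not reported here.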

Additional observations from a re-analysis of the deposited data

How the results depend on the processing

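Depth is unknown, since the lists hold no read counts, and a gene without a call was not shown to lack the mark or the factor. At a −log10 q of 10 or more, 12 of the 43 genes had an H3K27ac peak in the window, 11 one at an end and 2 one elsewhere; at 5 or more the numbers were 31, 29 and 7. With the gene body alone (0 kb), 6 genes had a peak elsewhere in place of 10, while 38 had any, and with 25 kb 15 and 39. The count of genes with an end peak was 37 under both other definitions of an end that were planned (19.0% and 20.8% of all genes). It was 39 with any RefSeq start added (20.0% of all genes), an alternative chosen after seeing the data. That alternative moves ORC1 and PCNA in and leaves 8 genes with a peak elsewhere (14.6% of all genes). For the NKX2-1 antibody, the gene body alone left 0 genes in any library, 0 in the combined list and 0 in that of WT-only regions, as the CDT1 site lies outside the gene. With 25 kb the count in any library was 2, the second being CDC6, with 1 peak in S36. The share over all genes is not given for the NKX2-1 antibody at 0 and 25 kb. At 10 kb, leaving out any 1 library kept the count in any library at 1 (range 1 to 1). The difference of WT and knockout means, 0.50 genes, ranged from 0.333 without WT10 or without WT28 to 0.667 without WT13 or without WT30, and was 0 with the gene body alone and 0.250 with 25 kb. No paired analysis was possible because the clones carry no number that links a WT clone to a knockout clone. No gene passed the adjusted Fisher's exact test with 0 or 25 kb (6 and 18 at an unadjusted p under 0.05), where the same smallest possible p limits the test.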

Other observations

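For some of the 103 other cell cycle genes the strongest H3K27ac peak of the window lay away from their own ends, and those below were chosen after their values were seen. PRIM1, the primase subunit that starts each new DNA strand, had 11.6-fold elsewhere in its window against 5.71 at its end, RFC4, a subunit of the clamp loader, 11.1 against 6.37, and the condensin gene NCAPD2 11.3 against 6.05. Each of these 3 peaks lay within 1 kb of an end of another coding gene, NACA for PRIM1, EIF4A2 for RFC4 and GAPDH for NCAPD2, so they are end peaks of those neighbours. POLE, the leading strand polymerase, had 10 peaks in its window, 8 of them away from its ends and none above 8.39-fold.

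A further 2 NKX2-1 antibody peaks lay beyond 10 kb but within 50 kb of one of the 43 genes, and both were called in the knockout clone S36 alone. One lay 18.1 kb from CDC6 (chr17:40322767-40322989, 4.96-fold) and one 42.4 kb from PCNA (chr20:5169068-5169267, 5.39-fold).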
